A study of Chlamydomonas reinhardtii with 2 samples.

Results

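Flagellar associated proteins (FAPs) are products of Chlamydomonas reinhardtii genes numbered after their proteins were found in isolated flagella. The genes were taken as all nuclear reference genes whose name in the files is FAP followed by a number. There were 344 of them among 17611 nuclear reference genes, and 17693 reference genes in all. The rule uses names and no measured value, but the family and the role lists below were proposed with earlier results of these data known.

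RNA was sequenced from 1 library of each of the laboratory strains CC5325 and CC125, both labelled wild type. Both cultures grew in TAP, an acetate medium, with shaking at 25 °C under 20 μmol photons per m2 per s. No treatment separates the groups, and what each strain carries in its genome beyond the wild-type label was not used here. With 1 library per strain there is no replicate check and no test between strains, and strain, culture and library cannot be told apart.

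Chlamydomonas swims with a pair of cilia, also called flagella, each built on an axoneme of doublet microtubules around a central apparatus. Dynein motors bend the axoneme, and radial spokes, the nexin-dynein regulatory complex and the central apparatus control them. FAPs take in structural proteins of all these parts and many proteins whose function is not settled. Ciliary genes of this alga are known to be induced together when cilia regrow after loss.

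The low number of reads in nuclear genes limits what can be seen of the FAP genes. Reads per gene were estimated as the deposited coverage (mean reads per base) times the gene span, divided by the read length of 150 bases. They are upper limits, because spans include introns. All nuclear reference genes together held 106556 estimated reads in CC5325 and 32002 in CC125. One gene without a symbol, Cre08.g374100, took 28.8% and 60.3% of these. Intervals below are exact 95% intervals of counting error only, taken on reads rounded to whole numbers. The 2 mates of a pair are not independent, so an interval on pairs (estimated reads divided by 2) is given where it ends a call. Because the estimates are upper limits, intervals on reads and on pairs are both too narrow, by an unknown amount.

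Most FAP genes were detected in CC5325 and fewer in CC125, in each library at a higher share than nuclear genes at large. In CC5325, 273 of the 344 genes (79.4%, interval 74.7 to 83.5) were listed above 0, against 53.2% of all nuclear reference genes. In CC125, 139 genes (40.4%, interval 35.2 to 45.8) were listed above 0, against 20.9%. Nuclear genes with another symbol lay between, at 69.2% in CC5325 and 31.9% in CC125. Both libraries listed 129 FAP genes above 0, where the background was 17.3%. CC5325 alone listed 144 (background 35.8%), CC125 alone 10 (background 3.51%) and neither library 61 (background 43.3%). A list of 153 other genes of the axoneme and of ciliary transport, such as dyneins, radial spoke proteins and intraflagellar transport proteins, gave shares whose intervals overlap those of the FAP genes. Of these, 124 (81.0%) were above 0 in CC5325 and 74 (48.4%) in CC125.

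Levels were low throughout. The median FAP gene had 2.68 estimated reads in CC5325 and 0 in CC125, and the highest had 185 and 27.2 reads. At least 1 read was reached by 244 FAP genes in CC5325 (background 41.8%) and by 101 in CC125 (background 12.7%). At least 10 reads were reached by 43 in CC5325 (background 6.73%) and by 3 in CC125 (background 1.07%). Relative abundance scaled by gene length is given in the files as TPM. At least 1 TPM was reached by 3 in CC5325 (background 1.15%) and by 0 in CC125 (background 0.619%). Of the genes above 0, 29 in CC5325 and 38 in CC125 had less than 1 estimated read. The 144 genes seen in CC5325 alone had a median of 3.12 reads there, and 136 of them had fewer than 10. Divided by the nuclear ratio of 5.98 given below, that median comes to 0.522 reads in CC125, so a value of 0 there does not show absence.

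All FAP genes together gave 2173 estimated reads in CC5325 (interval 2083 to 2266) and 337 in CC125 (interval 302 to 375). The ratio was 6.45 (5.75 to 7.25). Nuclear reference genes without Cre08.g374100 had a ratio of 5.98 (5.86 to 6.09), and with that gene 3.33 (3.29 to 3.37). The interval of the FAP ratio takes in the first of these values. Nuclear genes with another symbol had a ratio of 4.75 (4.63 to 4.86), below the FAP interval. That set includes the genes of ribosomal proteins, and its ratio without them was not computed. With these and Cre08.g374100 left out, nuclear genes had a ratio of 7.25 (7.09 to 7.41), at the upper end of the FAP interval. The other axoneme and transport genes had a ratio of 6.52 (5.55 to 7.70). Raw reads carry the difference in aligned bases, 5.81 Gb in CC5325 against 3.18 Gb in CC125. That is a smaller difference than the one in FAP reads. On the scaled columns the FAP ratio was smaller, with the sums still higher in CC5325. The sum of FPKM was 9.64 in CC5325 and 3.30 in CC125, a ratio of 2.92. The sum of TPM was 21.9 and 9.11, a ratio of 2.41, beside 2.43 for nuclear genes without Cre08.g374100.

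As a share of the reads in nuclear reference genes, FAP genes held 2.04% (1.96 to 2.13) in CC5325 and 1.05% (0.944 to 1.17) in CC125. With Cre08.g374100 left out, the shares were 2.87% (2.75 to 2.99) and 2.65% (2.38 to 2.95), and the intervals overlap. With the genes of ribosomal proteins left out as well, they were 3.33% (3.19 to 3.47) and 3.74% (3.36 to 4.15). Of the reads in genes with a symbol, which include those of ribosomal proteins, the FAP shares were 5.44% (5.22 to 5.67) and 4.06% (3.65 to 4.51). These intervals were apart. The order of the strains thus turned with the genes in the denominator, and no difference in the FAP share is read from it.

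A small number of members carried much of the signal. FAP113 alone held 8.48% of the pooled reads of both libraries, the 5 members with most reads 25.7%, the first 20 members 46.0% and the first 50 members 62.9%. Concentration was similar in both libraries, with 47.8% of FAP reads in the 20 highest genes of CC5325 and 45.4% in the 20 highest of CC125. None of the 20 members with most pooled reads is on the lists of axonemal roles used below.

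**Figure D1:**
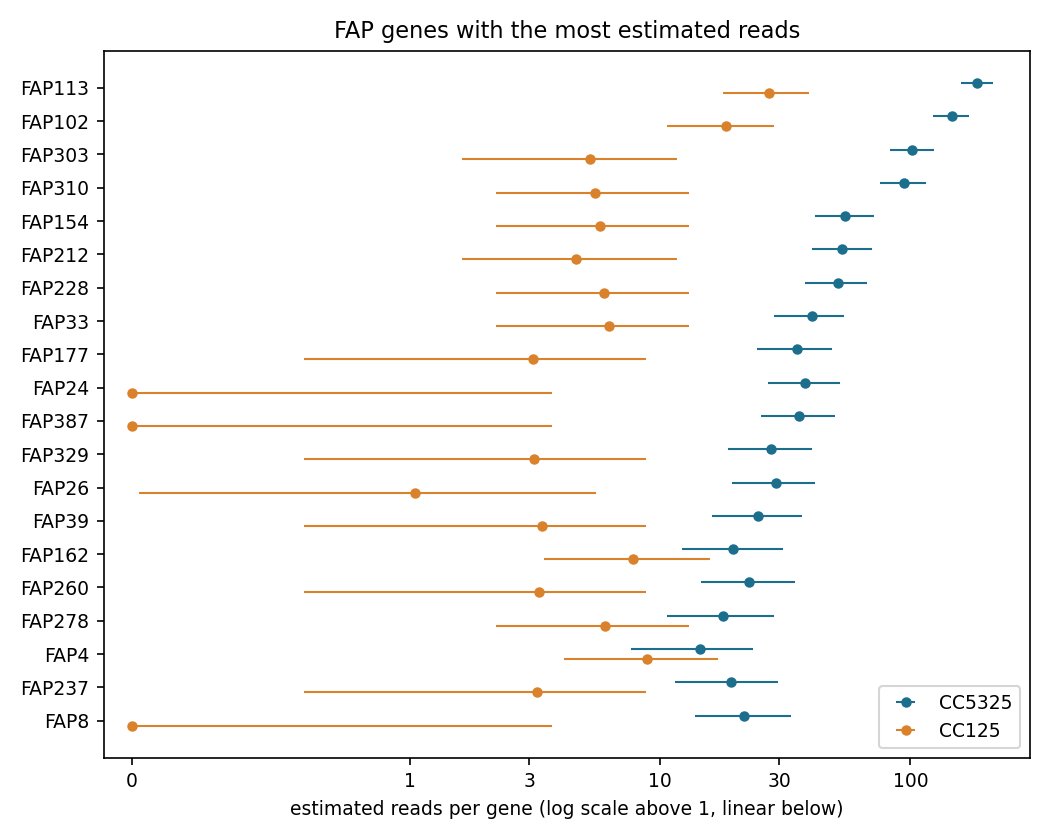
Estimated reads per gene (horizontal axis, log scale above 1 and linear below) for the 20 FAP genes with most pooled reads, with 1 point per library and exact 95% Poisson intervals of counting error. CC5325 lies above CC125 for each gene, from 185 against 27.2 reads for FAP113 to 21.7 against 0 for FAP8, and intervals overlap for FAP162, FAP278 and FAP4.

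FAP113 (Cre07.g321400, chromosome 7, 1200636 to 1211909, minus strand) had 185 estimated reads in CC5325 and 27.2 in CC125. Its level was 0.967 TPM and 0.314 TPM. Its coverage ratio was 6.82 (4.56 to 10.7), a wide interval that took in the nuclear ratio of 5.98. In CC5325 the authors' assembly placed 4 loci on its strand, which together covered 71.2% of its span.

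FAP102 (Cre09.g394200, chromosome 9, 2340141 to 2346485, minus strand) had 146 reads in CC5325 and 18.4 in CC125, at 1.36 TPM and 0.377 TPM. Its coverage ratio of 7.98 (4.96 to 14.1) also took in the nuclear ratio. Here 3 assembled loci covered 76.4% of the span in CC5325.

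FAP303 (Cre12.g528000, chromosome 12, 5275501 to 5278767, minus strand) had the highest TPM of the family in CC5325. Its level there was 1.89 TPM, from 102 reads, and in CC125 it was 0.210 TPM, from 5.27 reads. Its coverage ratio was 19.3 (8.46 to 64.2), an interval above the nuclear ratio. On pairs the interval began at 5.50 and took that ratio in. On the log2(TPM + 1) scale its ratio was 1.26. It alone reached 2-fold among the 37 genes named under the rule for named genes and above 0 in both libraries. On that scale no gene below 1 TPM in CC5325 can be 2-fold higher there, and only 3 FAP genes had at least 1 TPM. By plain TPM, FAP303 had a ratio of 9.01, FAP310 of 7.75, and FAP26, with 1.05 reads in CC125, of 12.5. A single assembled locus covered 96.0% of its span in CC5325.

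FAP310 and FAP212 are neighbours on chromosome 2. FAP310 (Cre02.g077800, 655949 to 660681, minus strand) had 94.5 reads in CC5325 and 5.50 in CC125, at 1.17 TPM and 0.151 TPM, a coverage ratio of 17.2 (6.93 to 43.8). FAP212 (Cre02.g077850, 664395 to 668763, minus strand) had 53.6 and 4.63 reads, at 0.720 TPM and 0.138 TPM, a coverage ratio of 11.6 (4.35 to 34.6). Both were much higher in raw coverage in CC5325, and the interval of FAP212 took in the nuclear ratio. That of FAP310 lay above it on reads but began at 5.04 on pairs, which takes it in. The gene on the other side of FAP310, FAP211, is also a member, and had only 2.53 reads in CC5325 and 0 in CC125.

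FAP154 on chromosome 8 had 54.6 reads in CC5325 and 5.75 in CC125, but spread over a span of 18181 bases it reached only 0.177 TPM and 0.0412 TPM. The adjacent gene FAP49, with 10.9 reads in CC5325, and the gene beyond it, FAP72, with 2.08, are also members. These 2 runs of neighbours were singled out after their values were seen. In all, 14 pairs of adjacent nuclear genes consisted of FAP genes, and most of these had few reads.

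Some well covered genes in CC5325 were not seen in CC125. FAP24 (Cre02.g081050, chromosome 2, 1146453 to 1151416, plus strand) had 38.0 reads in CC5325, at 0.450 TPM, while CC125 listed it at 0. FAP387 (Cre05.g243801, chromosome 5, 422312 to 442363, plus strand) had 36.0 reads over a span of 20052 bases, at 0.106 TPM, and was also listed at 0 in CC125. FAP8 followed with 21.7 reads against 0. In all, 8 FAP genes had at least 10 reads in CC5325 and were listed at 0 in CC125, 2.33% of the family against a background of 1.90%.

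At the other end stood well covered genes with low coverage ratios. FAP162 (Cre05.g233050, chromosome 5, 3408982 to 3410875, plus strand), a short gene of 1894 bases, had 19.5 and 7.81 reads, or 0.810 TPM against 0.537 TPM. The TPM of FAP162 in CC5325 was 1.34 times what its coverage gives. With TPM recomputed from coverage, its log2(TPM + 1) ratio went from 0.236 to 0.0635. One assembled locus covered its whole span in CC5325, and its coverage ratio was 2.50 (1.05 to 6.56). FAP4 (Cre12.g549750, chromosome 12, 8468820 to 8472870, minus strand) had 14.4 and 8.84 reads, at 0.209 TPM and 0.284 TPM. Its coverage ratio was 1.63 (0.627 to 4.07), below the nuclear ratio on reads, while on pairs the interval reached 8.15 and took it in. The direction of FAP4 turned from raw coverage to TPM.

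FAP353 (Cre12.g560150, chromosome 12, 7069009 to 7071299, plus strand) had the highest FAP level in CC125. It stood at 0.600 TPM there, from 10.6 reads, and at 0.189 TPM in CC5325, from 7.36 reads. Its coverage ratio was 0.697 (0.209 to 1.80). Besides FAP113 it was the only FAP gene with an assembled locus on its strand in CC125, which covered 27.0% of its span.

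Raw coverage was higher in CC125 than in CC5325 for 34 FAP genes, of which 24 were above 0 in both libraries (18.6% of 129 such genes, background 13.6%) and 10 were listed at 0 in CC5325. These 10 had 0.647 to 1.98 reads in CC125. For 0 of the 34 did the interval of the ratio leave out equal coverage. Those with most reads in CC125 after FAP353 were FAP90 with 5.33 reads against 4.75, FAP6 with 5.14 against 3.19 and FAP402 with 5.05 against 3.90.

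Over the 129 FAP genes above 0 in both libraries, ratios were spread like those of other nuclear genes. Being above 0 in the shallower library favours genes high in CC125, so these counts describe and do not support a direction. Coverage was at least 2-fold higher in CC5325 for 84 of them (65.1%, background 66.3%) and at least 2-fold higher in CC125 for 5 (3.88%, background 3.83%). The median log2 coverage ratio was 1.66, the same to 2 decimals as that of all 3054 nuclear genes above 0 in both. The other axoneme and transport genes differed here: of 70 above 0 in both, the median was 2.29. Coverage was at least 2-fold higher in CC5325 for 80.0% of those 70, and at least 2-fold higher in CC125 for 1.43%. It was higher in CC125 by any amount for 2.86%, against 18.6% of the 129 FAP genes (background 13.6%). By TPM, 44 FAP genes (34.1%, background 36.7%) were at least 2-fold higher in CC5325 and 25 (19.4%, background 16.3%) in CC125. The direction of many members depends on the scale: 105 (81.4%, background 86.2%) were higher in CC5325 by raw coverage, 88 (68.2%, background 69.3%) by FPKM and 82 (63.6%, background 63.1%) by TPM.

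Set against the nuclear ratio of 5.98, few members stood apart. The interval of the coverage ratio lay wholly above it for 4 of the 282 FAP genes with reads (1.42%, background 1.67%), namely FAP303, FAP310, FAP24 and FAP387. It lay wholly below it for 13 (4.61%, background 4.18%), among them FAP4, FAP353, FAP417, FAP90 and FAP402. Both shares are near the background. Counted on pairs, the interval lay above the nuclear ratio for 0 of 255 FAP genes (background 0.931%), so that all 4 calls ended. It lay below for 4 (1.57%, background 2.07%), which were FAP353, FAP90, FAP402 and FAP6.

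**Figure D2:**
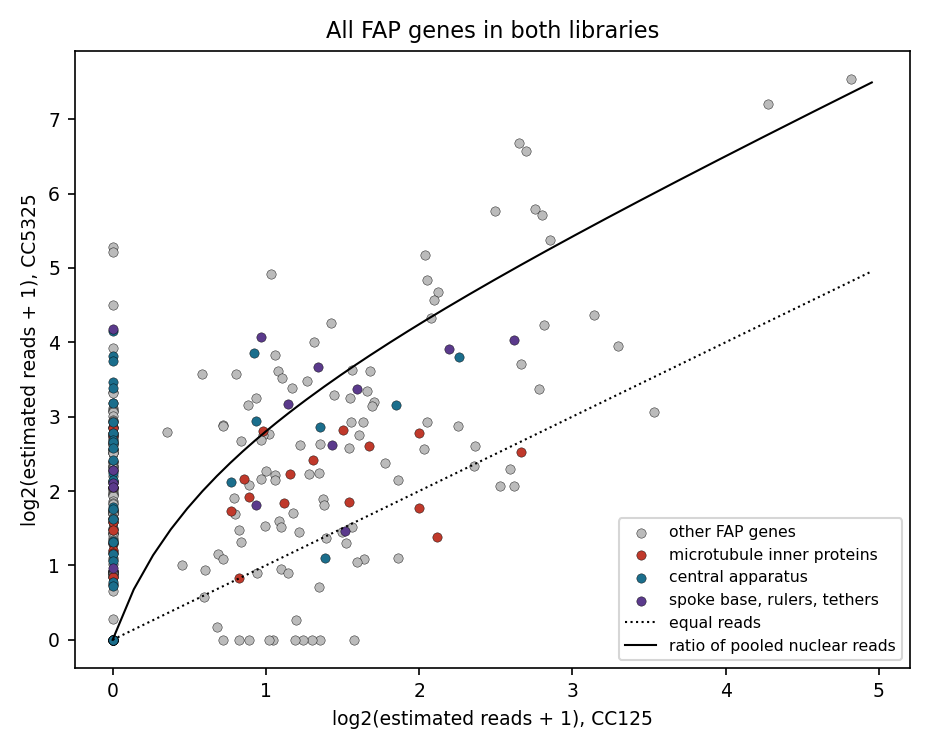
Each point is 1 of the 344 FAP genes, with log2(estimated reads + 1) in CC125 on the horizontal and in CC5325 on the vertical axis, coloured by list of axonemal role. The dotted line marks equal reads and the solid line the ratio of 5.98 over nuclear genes, 144 genes lie on the left edge above the origin, at 0 in CC125, and the points at the upper right are FAP113 and FAP102.

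Grouped by known place in the axoneme, the lists had pooled read ratios from 2.86 to 14.8. By TPM the ratios were 1.24 for the inner proteins, 5.86 for the central apparatus and 2.12 for the third list, beside 2.41 for all FAP genes and 2.43 for nuclear genes. The lists rest on textbook assignments, were drawn up with earlier results known and hold 78 of the 344 genes, and the other 266 are on no list. Of the 3 lists, proteins inside the doublet microtubules, which stabilise the doublets from within, had the smallest ratio and proteins of the central apparatus the largest.

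For microtubule inner proteins and the inner junction, 25 of 29 genes (86.2%) were above 0 in CC5325 and 15 (51.7%) in CC125. Beside these stand 79.4% and 40.4% of all FAP genes and 53.2% and 20.9% of nuclear genes. Their pooled reads were 81.8 and 28.6, a ratio of 2.86 (1.83 to 4.48), which lies below the nuclear ratio, also on pairs (1.56 to 5.82). No gene of this list reached 10 reads in either library. FAP90 had 4.75 reads in CC5325 and 5.33 in CC125, FAP252 had 5.84 and 2.998, and FAP126 had 5.10 and 2.19. FAP21 and FAP77 had more reads in CC125, with 1.61 against 3.33 and 2.40 against 2.99. FAP45 and FAP52, filamentous and propeller-shaped proteins of the doublet lumen, had 5.98 against 0.970 reads and 2.79 against 0.851 reads. FAP20, which closes the inner junction between the tubules of a doublet, stood at 0.0628 TPM and 0.0632 TPM from 2.58 and 1.17 reads.

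For the central apparatus, 31 of 35 genes (88.6%) were above 0 in CC5325, beside 79.4% of all FAP genes and 53.2% of nuclear genes. In CC125 it was 8 (22.9%), beside 40.4% and 20.9%, and 1 of the 8, FAP42, amounts to no read. Pooled reads were 179 and 12.1, a ratio of 14.8 (8.33 to 29.4), which lies above the nuclear ratio and does not overlap the interval of the inner proteins. The same held on pairs, with an interval from 6.55 to 41.5. With the genes of ribosomal proteins also left out, the nuclear ratio was 7.25 (7.09 to 7.41). The interval on reads lies above that value too, while the interval on pairs takes it in. FAP47, a protein of the C2 microtubule, had 16.8 reads in CC5325, and CC125 listed it at 0. FAP54, a large protein of the C1d projection, had 12.4 reads and was also listed at 0 in CC125. FAP42 had 13.1 reads in CC5325 and a coverage of 1e-06 in CC125. FAP46, a partner of FAP54 in C1d, had 9.50 reads against 0. FAP114, a protein of the C1a projection, went with the few seen in both, at 13.0 and 3.79 reads, a coverage ratio of 3.43 (1.004 to 13.7).

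For the nexin-dynein regulatory complex, spoke base, rulers and dynein tethers, 14 of 14 genes were above 0 in CC5325 and 9 (64.3%) in CC125. All FAP genes gave 79.4% and 40.4%, and nuclear genes 53.2% and 20.9%. Several subunits of the regulatory complex carry DRC symbols in the files and are therefore not FAP genes here. Pooled reads were 112 and 18.9, a ratio of 5.92 (3.60 to 10.2), which takes in the nuclear ratio. FAP172 and FAP59 form together the ruler that sets the axonemal repeat. FAP172 had 15.4 and 5.15 reads and FAP59 14.0 and 3.58, coverage ratios of 2.98 (1.04 to 10.6) and 3.91 (1.10 to 14.6). FAP206, which docks a radial spoke at its base, had 17.2 reads in CC5325, and CC125 listed it at 0. FAP244, a tether of an inner dynein, had 15.8 reads against 0.959 over a span of 21446 bases.

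The lists also differ in gene span, which moves with the read ratio among all nuclear genes. Median span was 2904 bases for the inner proteins, 6077 for the central apparatus and 6760 for the third list. Over nuclear genes without Cre08.g374100, the read ratio was 4.25 for spans under 2 kb, 4.41 from 2 to 5 kb, 8.42 from 5 to 10 kb and 10.7 at 10 kb and over. For each list, the interval on reads took in the nuclear ratio of the span class that holds its median span. That ratio was 4.41 for the inner proteins (1.83 to 4.48) and 8.42 for the central apparatus (8.33 to 29.4) and the third list (3.60 to 10.2). In the same 2 classes, nuclear genes with another symbol had 4.07 and 7.84, and all FAP genes 4.96 and 7.13. Both 7.84 and 7.13 lie below the interval of the central apparatus on reads, and 4.96 lies above that of the inner proteins. On pairs, the intervals of these lists take them in. The part of span in the difference between the lists was not tested. With 12.1 reads in CC125, the central apparatus value rests on few reads.

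**Figure D3:**
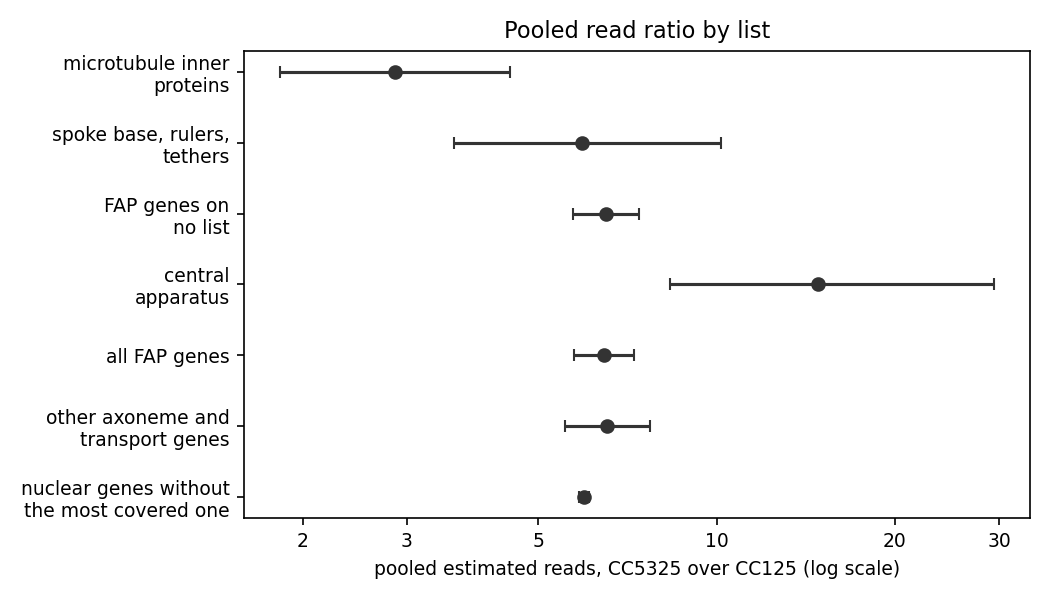
Ratio of pooled estimated reads, CC5325 over CC125, on a log axis, for each list of FAP genes and for the other genes beside them, with exact 95% intervals of counting error. Inner proteins stand at 2.86 and the central apparatus at 14.8, on either side of all FAP genes at 6.45 and nuclear genes at 5.98.

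FAP genes had a median span of 4798.5 bases, with quartiles at 3061 and 8731, against a median of 4326 over nuclear genes. The range ran from 213 bases for FAP385 to 24394 for FAP308. In CC5325 the detected members had a median span of 5034 bases (interval 4771 to 5925) and the undetected ones 3061 (2548 to 3723). In CC125 the medians were 4995 (4217 to 6595) and 4584 (4141 to 5026), with overlapping intervals. The 3 shortest members, FAP385, FAP326 and FAP273, were listed at 0 in both libraries. Of the longest, FAP308 had 5.66 reads in CC5325 and 0 in CC125, and FAP417 had 9.38 and 5.89.

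Detection in CC5325 was higher among longer genes. Of 36 FAP genes under 2 kb 41.7% were above 0, of 149 from 2 to 5 kb 79.2%, of 98 from 5 to 10 kb 84.7% and of 61 at 10 kb and over 93.4%. All nuclear genes of the same classes gave 27.4%, 47.9%, 65.1% and 83.8%, so the FAP share was higher in each class. Nuclear genes with another symbol gave 56.1%, 65.8%, 73.8% and 87.9%. Against these, FAP genes were lower under 2 kb and higher in the other classes, and the intervals were apart in the class from 2 to 5 kb only. In CC125 the FAP shares were 19.4%, 42.3%, 38.8% and 50.8%, against 12.2%, 18.4%, 24.9% and 34.0% of all nuclear genes.

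**Figure D4:**
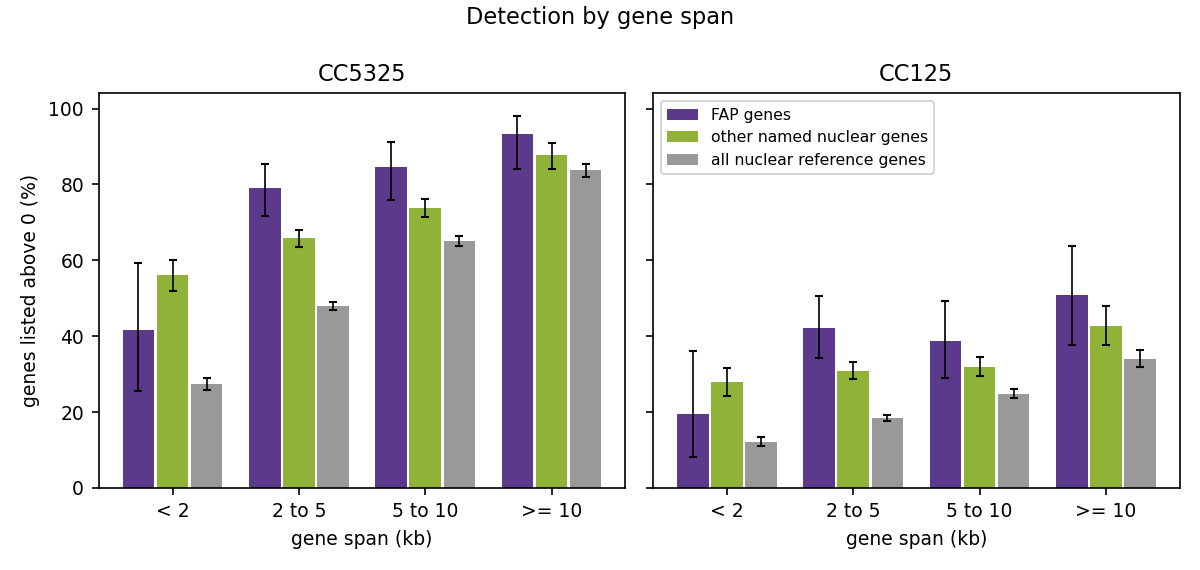
Percent of genes listed above 0 by class of gene span in kb, in CC5325 and in CC125, for FAP genes, other nuclear genes with a symbol and all nuclear reference genes, with exact 95% binomial intervals. In CC5325 the FAP share runs from 41.7% under 2 kb to 93.4% at 10 kb and over, and it lies above the share of all nuclear genes in each class of both libraries.

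The read ratio of FAP genes followed span in the same order as that of nuclear genes. It was 4.21 (2.32 to 7.52) under 2 kb, 4.96 (4.11 to 5.99) from 2 to 5 kb, 7.13 (5.66 to 8.98) from 5 to 10 kb and 8.29 (6.71 to 10.3) at 10 kb and over. The intervals of neighbouring classes overlap. Those of the second and the last class do not on reads, and on pairs (3.83 to 6.57 and 6.15 to 11.4) they do.

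Loci that the authors' run assembled from the reads of a library show which FAP genes were covered in longer stretches. In CC5325, 41 FAP genes (11.9%, background 4.84%) had at least 1 assembled locus on their strand, 55 loci in all. These covered a median of 13.3% of the span, so most of them trace pieces of a gene. Only FAP162, FAP303, FAP102, FAP113 and FAP24 had at least 50% of their span covered. In CC125, 2 FAP genes (0.581%, background 0.931%) had such a locus.

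Of the 20 members with most reads, 11 overlap another reference gene, 10 of them on the opposite strand. Whether the counting used strand is not given in the sources used here, so reads in the overlaps cannot be assigned with certainty. The overlapping partners had at most 5.69 reads in CC5325 and 0 in CC125. No FAP gene lay in the run of genes with high coverage at the left end of chromosome 1. No FAP gene had a TPM over 1.5 times what its coverage gives, in either library.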

How the data were processed

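Per the labels' protocols, total RNA was depleted of ribosomal RNA and read as 150 base paired ends; the molecule field names polyA RNA. The submitters' processing notes list StringTie 2.2.3, HISAT2 2.2.1, FastQC 0.12.1 and Trimmomatic, with parameters not given in the sources used here. For each gene, the deposited tables give Coverage (a signal in mean reads per base), FPKM and TPM, as the authors computed them. By their suffix, gene identifiers are of the CC-4532 version 6.1 annotation, and coordinates were taken as the files give them. Coverage over FPKM gives 5.81 Gb of aligned bases in CC5325 and 3.18 Gb in CC125.

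Plastid, mitochondrial and assembled rows were left out of the gene counts. Estimated reads were computed as described in the report, without a minimum TPM. Ratios have exact binomial intervals conditional on the sum of both libraries, sums exact Poisson intervals, shares exact Clopper-Pearson intervals and medians order-statistic intervals, all at 95%. Mates are not independent and the read estimates are upper limits, so these intervals are too narrow. Intervals on pairs correct for the mates only. There is no test between strains. Log ratios used log2(TPM + 1), which understates changes of low genes. The comparison list took symbols with a prefix such as DHC, IFT or RSP followed by a number. Named genes were the 20 members with most reads, the 6 with highest mean TPM, up to 10 with higher coverage in CC125, the 3 shortest and 3 longest, and 4 per role list. FAP211, FAP49, FAP72, FAP46, FAP54, FAP20, FAP45 and FAP52 were named beside these after their values were seen. The members and lists were chosen with earlier results of these data known. Scripts ran under Python 3.11.15 with scipy 1.17.1, pandas 2.3.3, numpy 2.4.6 and, for figures, matplotlib 3.10.9. The ratio and its interval were tested on simulated data.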

Additional observations from a re-analysis of the deposited data

How the results depend on the processing

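The number of FAP genes detected depends on the threshold. With at least 1 estimated read it was 244 in CC5325 (background 41.8%) and 101 in CC125 (background 12.7%). With at least 3 reads it was 165 and 32, for which no nuclear share is given here. Only 1 FAP gene had a mean of at least 1 TPM over both libraries. The ratio of pooled reads was 2.41 by the sum of TPM, 2.92 by FPKM, 5.27 by coverage and 4.77 over members above 0 in both libraries, an alternative chosen after seeing the data. It was 6.42 without FAP113 and 5.79 without the 5 members with most reads. It stayed above 1 in each of these. The share of nuclear reads in FAP genes moved to 2.87% in CC5325 and 2.65% in CC125 without the gene with most reads, to 5.44% and 4.06% of genes with a symbol, and to 3.33% and 3.74% without ribosomal protein genes too. It was 1.86% in CC5325 without FAP113. The median log2(TPM + 1) ratio of the 37 named genes above 0 in both libraries was 0.066 and 0.374 with a pseudocount of 0.1. Of the 37, 3 moved by more than their counting interval with that pseudocount and 0 with the other scalings. No paired analysis was possible because each strain has 1 library. With mates of a pair counted once, also chosen after seeing the data, the members whose ratio interval lies above the nuclear ratio went from 4 to 0 and those below it from 13 to 4. Few reads per gene thus limit what can be read from single genes.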
